A study of Mus musculus with 74 samples.

Results

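The regions described here are the 1000 bp windows around those BCL6 binding peaks of mouse quadriceps that lie inside introns, more than 1000 bp from the nearest annotated transcription start. They were chosen by their annotation and distance alone, and 5428 of the 10925 BCL6-peak windows (49.7%) met the rule. A further 317 intronic windows lay within 1000 bp of a start and were left out. The peaks came from 1 BCL6 chromatin immunoprecipitation library of untreated wild-type C57BL/6 quadriceps, made with an in-house guinea-pig monoclonal antibody, so peak strength has no replicate. Acetylation of histone H3 (H3K27ac) was then counted in every window in 3 Cre-negative Bcl6 fl/fl mice (Ctr_1898, Ctr_1899 and Ctr_1906) and 3 AEC-Esr Cre (+):Bcl6 fl/fl mice (mKO_1896, mKO_1900 and mKO_1907). Both groups are C57BL/6, both carry the floxed allele, and both received tamoxifen (TMX in the labels), so the presence of Cre and the loss of Bcl6 cannot be told apart in this comparison. The cell type in which this Cre is active, and the exons it removes, are not given in the sources used here. The other 2 H3K27ac series came from other animals, 3 Cre-negative and 3 knockout mice each of the same genotypes and treatment, and are labelled acute and chronic. Poly(A) RNA came from 4 Cre-negative mice and 5 knockouts, which include all 6 animals of the window series. A second set of RNA came from other animals that also carry RiboTag, a tagged ribosomal protein: 4 knockouts, AEC-Esr Cre (+):Bcl6 fl/fl; RiboTag (+), and 4 Cre-positive controls, AEC-Esr Cre (+); RiboTag (+), all given TMX.

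BCL6 is a zinc-finger repressor that binds DNA and brings in corepressors such as NCOR1 and the histone deacetylases that travel with them. H3K27ac is a mark of active promoters and enhancers, which deacetylases remove. Enhancers often sit in introns, of the gene they act on or of a neighbour, so the gene with the nearest start and the gene whose intron holds the site can differ.

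Libraries of the window series held 15007526 to 22722409 tags, and the signal given below is tags per 10000000 tags of a library, as deposited. In the poly(A) RNA, Bcl6 had log2 values of 10.21, 10.41, 10.36 and 10.38 in the controls and 10.09, 10.22, 9.99, 10.25 and 9.98 in the knockouts. These ranges overlapped, with a difference of -0.23 (SE 0.06, limma adjusted p = 0.0135) that no longer passed after quantile normalization (adjusted p = 0.0684) or without the filter on low genes (adjusted p = 0.111). In the RiboTag RNA Bcl6 was 209 ± 95.7 in controls and 229 ± 39.8 in knockouts (SD, n = 4 each, in CPM after TMM scaling), a log2 difference of 0.14 (edgeR adjusted p = 0.84) whose sign turned when Ctr_11673 or Ctr_11735 was left out. A value over the whole gene does not show whether single exons are lost. The 6 muscle fibre markers averaged 12.81 to 12.89 on the log2 scale in the poly(A) RNA of controls and 12.72 to 12.82 in that of knockouts. Of the 6, 2 were called lowered, as were 10.3% of all genes. Of 3 Schwann markers 1 was called raised, as were 6.55% of all genes, and 0 satellite cell or smooth muscle markers were called. The 3 lymphocyte markers averaged 1.67 to 1.69, and endothelial, macrophage, fibroblast, adipocyte and tendon markers were all well above that (7.54 to 10.1). In whole muscle, fewer cells of a type and less signal per cell cannot be told apart.

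The letters of 5 intronic peaks are shown because the sequence tables hold at least 200 bases of them. These peaks overlap RefSeq promoter entries, of Gm39260, Gm51674, Gm51695, Asb5 and Gm39098, so they need not be typical of members. All 5 are read on the plus strand of GRCm38 (the build named mm10 in the labels) from RefSeq promoter entries, and capitals mark matches to any of the motifs searched. The Cmip peak (intron 6, chr8:117423217-117423437) and the Dixdc1 peak (intron 5, chr9:50697621-50697837 shown) lie in windows called raised in the knockout, by 0.67 and 0.68 on the log2 scale. The Itga9 peak (intron 12, chr9:118887272-118887472 shown), the Asb5 peak (intron 1, chr8:54571276-54571488 shown) and the Tacc2 peak (intron 3, chr7:130645951-130646171) lie in windows that were not called, at 0.29, 0.28 and 0.07.
Cmip: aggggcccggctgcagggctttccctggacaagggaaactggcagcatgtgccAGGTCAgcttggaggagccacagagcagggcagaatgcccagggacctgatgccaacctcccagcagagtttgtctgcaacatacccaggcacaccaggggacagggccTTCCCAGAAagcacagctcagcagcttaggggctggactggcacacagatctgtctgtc
Dixdc1: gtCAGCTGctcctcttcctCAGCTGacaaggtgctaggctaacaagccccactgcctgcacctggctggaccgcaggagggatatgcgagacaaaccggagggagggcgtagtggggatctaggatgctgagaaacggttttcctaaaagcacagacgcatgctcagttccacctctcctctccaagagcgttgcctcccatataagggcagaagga
Itga9: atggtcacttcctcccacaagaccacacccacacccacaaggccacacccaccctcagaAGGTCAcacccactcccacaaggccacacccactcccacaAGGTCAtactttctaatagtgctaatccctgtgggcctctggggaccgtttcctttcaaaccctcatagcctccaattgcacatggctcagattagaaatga
Asb5: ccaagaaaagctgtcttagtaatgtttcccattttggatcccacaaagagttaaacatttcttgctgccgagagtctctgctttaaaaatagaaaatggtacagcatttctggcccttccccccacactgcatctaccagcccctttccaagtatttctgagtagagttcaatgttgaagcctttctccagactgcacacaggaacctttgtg
Tacc2: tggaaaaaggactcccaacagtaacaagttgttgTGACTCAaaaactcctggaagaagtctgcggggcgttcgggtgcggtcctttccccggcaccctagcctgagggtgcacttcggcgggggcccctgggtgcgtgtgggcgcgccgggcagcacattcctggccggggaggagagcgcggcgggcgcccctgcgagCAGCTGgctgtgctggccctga
Motifs were searched on both strands: TTCCTAGAA for BCL6, TTCNNNGAA for STAT factors (which contains the BCL6 letters), CAGCTG for E-box proteins, CTAAAAATA for MEF2, AGAACA for the glucocorticoid receptor, TGANTCA for AP-1 and AGGTCA for other nuclear receptors. The exact BCL6 letters occurred in 0 of the 5 peaks and in 0.301% of 32851 promoter stretches of 221 bases. The Cmip peak held a STAT match, TTCCCAGAA, a form found in 6.09% of those stretches, and an AGGTCA. Both matches in the Dixdc1 peak were CAGCTG, which 11.96% of stretches held. The Itga9 peak had AGGTCA in 2 places (12.5% of stretches hold it) and the Tacc2 peak held TGACTCA and CAGCTG. The Asb5 peak held none of these letters. All these matches are descriptions of letters and say nothing on binding.

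The intronic peaks were spread over 3331 genes by nearest start and 3028 genes by the intron that holds them, and for 1413 peaks the 2 genes differed. The median distance to a start was 22558 bp, with quartiles at 8584 and 53100 bp, and 1908 windows (35.2%) were in a first intron. Most, 4626 (85.2%), lay on no annotated repeat or CpG island, against 292 on SINE, 225 on LTR and 168 on LINE elements. The Peak Score, the authors' own value with no named scale, ran from 12.3 to 657.8 with a median of 23.3, the median of all BCL6 windows as well. Windows of 197 members overlapped another member, so they share tags. Near the distance limit, the 20 nearest windows inside it (1002 to 1034 bp) had a median control signal of 83.4 and the 20 nearest outside (947 to 1000 bp) one of 108.

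Many intronic BCL6 sites carried more H3K27ac in the knockouts. Of 5428 windows, 4490 reached a mean signal of 5 and were tested, and 821 were called raised and 74 lowered (limma, adjusted over all 9080 windows tested, threshold 0.05). That is 18.3% raised and 1.65% lowered, close to the 16.7% and 1.44% of all BCL6 windows. Among the raised, 330 moved by more than 1 on the log2 scale, 62 by more than 2 and 11 by more than 3, against 26, 2 and 0 of the lowered. Of the 4490, 149 had a control mean under 5 and so passed the filter only through the knockouts, and 61 of these were called raised. A further 35 had a knockout mean under 5 and passed only through the controls, and 4 of these were called lowered. The filter fixed the direction of windows of these 2 kinds, and the counts by size include them. Sizes were counted only for members and only at the deposited scaling. They do not show whether large changes were more common here than over all BCL6 windows. The split depended on how libraries were scaled. With each library centred on its median over all windows tested, 470 were raised and 306 lowered, with quantile normalization 486 and 265, and with edgeR and TMM on the tags 577 and 202. These scalings moved the median change of all windows from 0.14 to -0.09, -0.07 and -0.02. Counts of raised windows also fell to 523 without mKO_1900 and 532 without mKO_1907, and of lowered windows to 28 without Ctr_1899 and 38 without mKO_1907.

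The share of a library's tags that fell in intronic windows was 2.64%, 2.63% and 2.37% in the controls and 2.87%, 3.21% and 2.98% in the knockouts. All 3 knockouts were thus above all 3 controls. The median log2 signal over the windows tested was 5.06 ± 0.09 (SD, n = 3) in controls and 5.30 ± 0.05 in knockouts, a difference of 0.24 (2-sided exact permutation test, p = 0.1, the smallest that 3 against 3 can give, and 0.15 after adjustment over 12 such comparisons). Centred libraries gave a difference of 0.01. Of the 9080 windows whose median was subtracted, 4490 are these members. A value near 0 was thus largely set in advance and does not show whether the members gained. Promoter windows had a raised share of 8.26%, with 102 of 1235 called, and intergenic windows one of 19.1%, with 476 of 2486. The library median of intronic minus promoter windows was -1.86 ± 0.11 (SD, n = 3) in controls and -1.72 ± 0.06 in knockouts, and this difference did not reach even the smallest p (exact permutation p = 0.2, adjusted 0.2). Among members, the raised share was 17.6% in first introns and 18.7% in later ones, 23.1% on LTR elements, 13.8% on SINE elements, and 15.5% within 5000 bp of a start against 20.5% beyond 100000 bp.

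**Figure D1:**
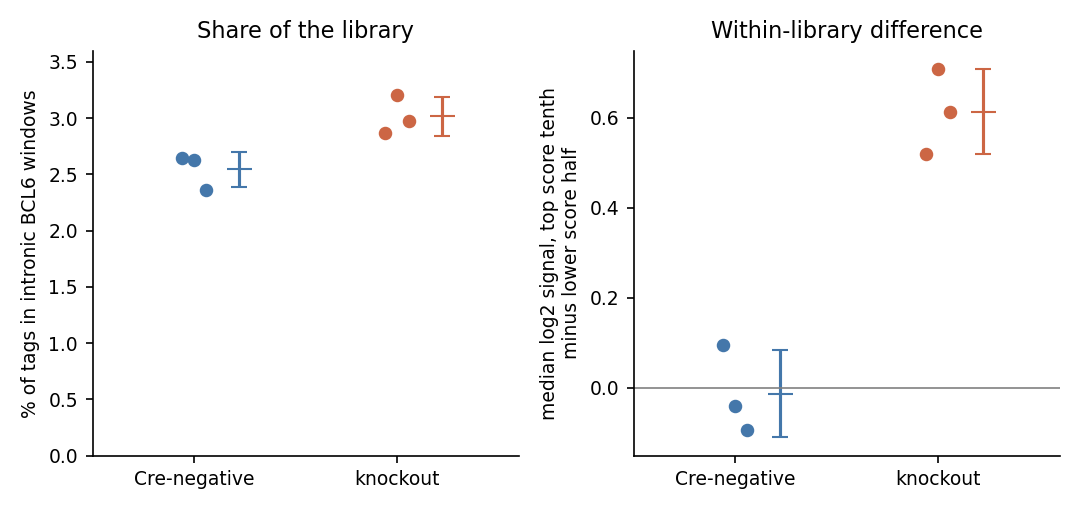
Per-library values of intronic BCL6 windows in 3 Cre-negative and 3 knockout libraries (points), with mean and SD beside them. Left, % of all tags that fell in these windows, between 2.37 and 2.64 in controls and 2.87 and 3.21 in knockouts. Right, median log2 signal of the windows in the top 10% by Peak Score minus that of the lower 50%, which is about 0 in controls and 0.52 to 0.71 in knockouts.

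Windows with the strongest BCL6 peaks in wild-type muscle were most often raised, but the rise was not even over the scores. In 10 equal groups by score, groups 1 to 5 had 9.66% to 11.4% raised, and groups 6 and 7 had 16.4% and 14.8%. Groups 8, 9 and 10 had 20%, 30.5% and 41.7%. In the lowest 10% of members by Peak Score 40 of 414 windows tested were raised (9.66%) with a median change of 0.05. In the top 10% 207 of 496 were raised (41.7%) and 6 lowered, with a median change of 0.50. Control signal rose little over the same groups: the median was 21.2 in the lowest 10% and 24.95 in the top 10%. Of the 100 windows with the highest scores 95 were tested, 56 were raised and 0 lowered, with a median change of 0.75. Counts and medians by score include windows that passed the filter only through the knockouts, such as those in Usp46 and Ctr9. The direction of such windows was fixed by the filter, and the counts were not repeated without them. Over the 4490 windows, Spearman's correlation of score and change was 0.25 and that of score and mean signal 0.06, as descriptions over windows that share 6 libraries. A further measure, set up after the data were seen, was the median log2 signal of the top 10% minus that of the lower 50% of members by score, which centring a library cannot move. It was -0.01 ± 0.10 (SD, n = 3) in controls and 0.61 ± 0.09 in knockouts, with all knockouts above all controls, and the difference of 0.63 had an exact permutation p of 0.1 (adjusted 0.15), again the smallest possible.

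**Figure D2:**
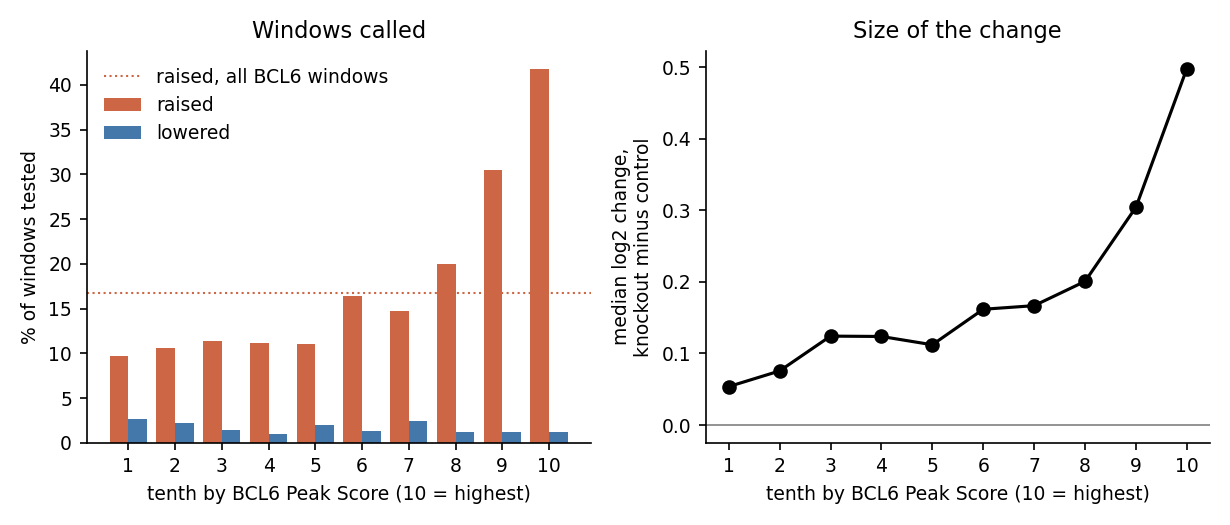
Intronic windows in 10 equal groups by wild-type BCL6 Peak Score. Left, % of windows tested that were called raised or lowered in the knockout, with the raised share of all BCL6 windows as a dotted line at 16.7%. Right, median log2 change, which goes from 0.05 in the lowest 10% to 0.50 in the top 10%.

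Usp46, which encodes a deubiquitinase, held the strongest intronic peak and the largest gain on the log2(signal + 1) scale. The peak (score 657.8, intron 4 of 8, chr5:74020542-74020762) had a signal of 0.67, 0.91 and 0.95 in the controls, which is 1, 2 and 2 tags, and of 39.0, 57.2 and 41.0 in the knockouts. The window was near empty in every control and filled in every knockout, with a change of 4.65 on the log2(signal + 1) scale (SE 0.30, limma adjusted p = 5.54e-07). All folds on this scale understate the change of windows with few tags. An intron of St6galnac3, a sialyltransferase gene (intron 3 of 4, chr3:153325873-153326093), had 0.67, 0.91 and 0.48 in the controls and 36.6, 37.0 and 43.0 in the knockouts, a change of 4.57, with a score of only 41.7. Ctnnbl1, whose protein works with the spliceosome (intron 10 of 15, chr2:157823633-157823853, score 211.9), had 2.67, 6.79 and 3.82 against 64.3, 96.8 and 65.0. Means were 4.43 ± 2.13 and 75.4 ± 18.6 (SD, n = 3), 17.0-fold apart (change 3.86, adjusted p = 1.09e-06). The groups did not overlap in any of these windows, and all of them passed the filter only through the knockouts.

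An intron of Hdac8, a class I histone deacetylase on the X chromosome (intron 9 of 10, chrX:102350078-102350298), held 8, 9.05 and 6.68 in controls and 118, 97.7 and 102 in knockouts, 13.4-fold apart in mean (change 3.59, limma adjusted p = 1.3e-07). Hdac8 RNA itself did not pass the test (log2 difference -0.02, adjusted p = 0.659). Glb1, the lysosomal beta-galactosidase gene, and Zfyve28 completed the 6 largest gains on this scale, with changes of 3.57 and 3.55, and they also passed the filter only through the knockouts. Among the 8 highest scores, Arid3b, a DNA-binding protein of the ARID family (intron 1 of 7, chr9:57831421-57831641, score 606.4), had 22.7, 28.5 and 19.6 in controls and 138, 142 and 122 in knockouts. These means of 23.6 ± 4.55 and 134 ± 10.9 (SD, n = 3) were 5.68-fold apart (change 2.47, adjusted p = 9.15e-07). Gm29684 (score 628.4), Sympk (444.7) and Ctr9 (545.1) were also called raised, by 1.39, 2.39 and 1.11. The call at Ctr9, with an adjusted p of 0.0264, was lost under quantile normalization, median centring and without any of 4 single libraries (adjusted p = 0.0557 to 0.117), with a change of 0.85 to 1.16, and this window too passed the filter only through the knockouts.

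A strong peak did not always go with a gain. Tmod1, which caps the pointed ends of actin filaments (intron 4 of 9, score 476.5), had 125, 124 and 94.0 in the controls and 115, 130 and 140 in the knockouts. The groups overlapped and the change of 0.18 was not called (limma adjusted p = 0.44), turning to -0.02 under quantile normalization. The window in Crybg3 (score 407.9) likewise overlapped, at 0.13 (adjusted p = 0.716), and its sign also turned with scaling. At Adamts9 (score 463.1) the change of 0.75 missed the threshold (adjusted p = 0.0807), which it passed without Ctr_1898 or mKO_1896. The 5 windows with the highest mean signal, in Clec2d, 0610040F04Rik, Klf13, Lzts2 and Zbtb20, had changes of 0.16, 0.20, 0.14, 0.27 and 0.10, of which that at Lzts2 was called (adjusted p = 0.0209) but not under the other scalings.

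**Figure D3:**
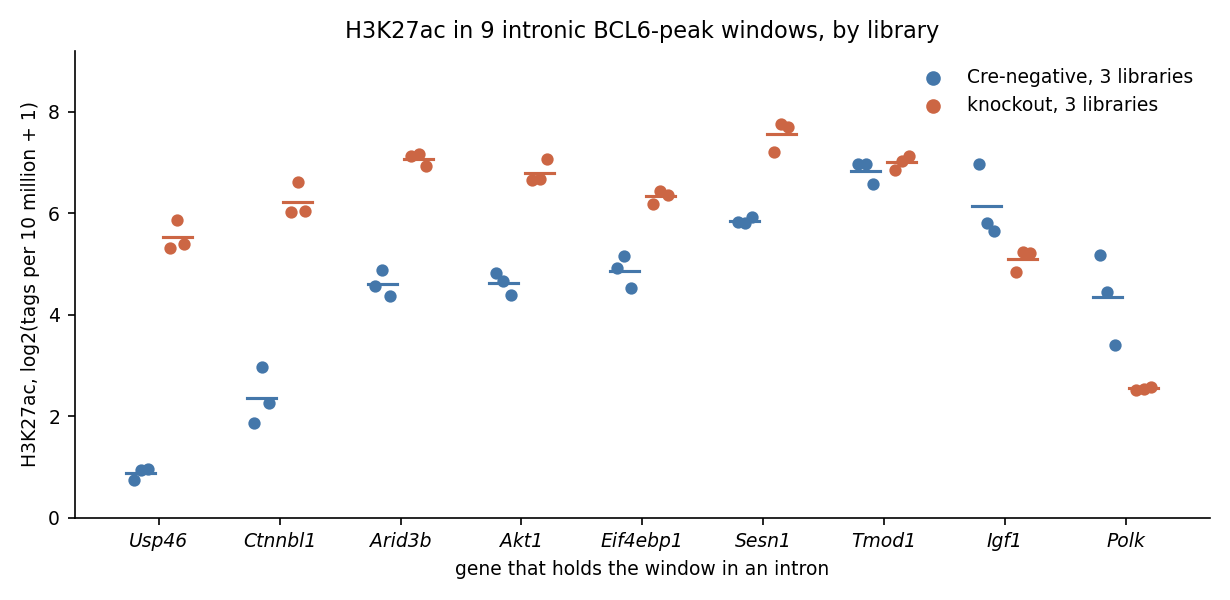
H3K27ac in 9 intronic BCL6 windows as log2(tags per 10000000 + 1) in each of 3 Cre-negative (blue) and 3 knockout (orange) libraries, with bars at the means. Usp46 and Ctnnbl1 start lowest in controls, Arid3b, Akt1, Eif4ebp1 and Sesn1 show groups apart, Tmod1 overlaps, and Igf1 and Polk lie lower in knockouts.

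At the deposited scaling far fewer windows were called lowered than raised (74 against 821). With median centring the counts were 306 and 470. At Rnf216, a ubiquitin ligase gene (intron 8 of 16, chr5:143080266-143080486), controls had 39.98, 19.46 and 10.02 and knockouts 3.54, 1.76 and 5.5. The groups did not overlap, and the change was -2.28 (SE 0.44, limma adjusted p = 0.00256). Windows in Hdac4, a class IIa deacetylase gene, and in Polk, Sema3a and Zc3h12d changed by -1.97, -1.79, -1.69 and -1.47. Polk, a translesion DNA polymerase (intron 4 of 12, chr13:96503228-96503448), had 35.3, 20.8 and 9.54 against 4.72, 4.84 and 5. Library Ctr_1898 was the highest library in all 5 of these windows. Those in Rnf216, Hdac4 and Polk passed the filter only through the controls. The Hdac4 one lies in intron 24 and its nearest start is that of Twist2, while a window in intron 4 of Hdac4 was raised by 0.75 (limma adjusted p = 0.00515).

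Growth hormone, IGF and insulin signalling sets muscle size through the kinases AKT1 and AKT2 and the FOXO factors, and through EIF4EBP1, which binds the cap factor of translation. Of 49 windows assigned to 22 of the 43 genes of this list 45 were tested, and 17 were raised (37.8%) and 1 lowered, with a median change of 0.38, against 16.7% raised, 1.44% lowered and a median of 0.14 over all windows. The raised windows lay in 9 of these genes, with 4 in Sesn1, 3 in Eif4ebp1 and 2 in Akt1. This list and those below were chosen with earlier results of these data known, so their shares are descriptions only. Median centring left 13 raised and 2 lowered in this list, and edgeR with TMM 14 and 2. With these scalings all windows had 9.2% and 11.2% raised, and 6.84% and 4.26% lowered. At the strongest Akt1 peak (score 300.1, intron 2 of 13, chr12:112671026-112671246) controls had 27.3, 24.4 and 20.03 and knockouts 99.1, 102 and 133. The groups were well apart, at 23.9 ± 3.67 and 111 ± 18.6 (SD, n = 3), or 4.64-fold (change 2.17, limma adjusted p = 2.14e-06). A second Akt1 window in the same intron rose by 1.39, and 1 of 2 tested Akt2 windows by 1.91.

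All 3 windows in intron 1 of Eif4ebp1 were raised, by 1.46, 1.52 and 0.74. At the one with the highest score (132.3, chr8:27269210-27269430) controls had 29.3, 34.9 and 21.9 and knockouts 72.0, 85.4 and 81.5, or 2.77-fold (limma adjusted p = 9.56e-05). Sesn1, a stress sensor upstream of mTORC1, had all 4 of its windows raised, by 0.91 to 1.70. The largest of these (intron 5 of 9, chr10:41901916-41902136) went from 56.0, 54.8 and 59.6 to 146, 216 and 208, or 3.34-fold (adjusted p = 4.15e-06). In Foxo3 2 of 4 windows were raised, by 1.32 and 1.40, in Insr 2 of 4 and in Irs1 1 of 3.

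Igf1, the growth factor itself, went the other way. Its window (intron 1 of 3, chr10:87862890-87863110, score 47.8) had 124, 55.2 and 49.1 in controls and 27.7, 36.5 and 36.0 in knockouts. The groups did not overlap, at 76.1 ± 41.5 and 33.4 ± 4.93 (SD, n = 3), with a change of -1.05 (SE 0.28, limma adjusted p = 0.0169). Windows of Foxo1, Igf1r and Ghr were not called, at 0.17, -0.16 and 0.15. Socs2, Socs3, Cish, Irs2, Trim63, Mstn and Ddit4 had no intronic window.

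Regulators of oxidative metabolism include the PPAR and ERR nuclear receptors and their coactivator PGC-1. Of 23 tested windows assigned to PPAR, ERR and PGC-1 regulators 8 were raised (34.8%, against 16.7% of all windows). Lowered were 0, against 1.44% of all windows. The 8 include a Ppargc1a window with a control mean of 3.19 and a knockout mean of 9.25. It passed the filter only through the knockouts, so its direction was fixed. Other such windows in the gene lists were not counted. Under the other scalings 5 to 6 of the 23 were raised and 0 to 1 lowered. With those scalings 9.2% to 11.2% of all windows were raised and 4.26% to 6.84% lowered. Among the raised at the deposited scaling, Ppard went from 124, 131 and 130 to 192, 249 and 212 (change 0.75, limma adjusted p = 0.000436). Thrb, a thyroid hormone receptor gene, rose by 0.80, and Ncor1, the corepressor that BCL6 itself recruits, by 0.84. In the lipid list 5 of 16 windows were raised (31.3%) and 1 lowered, which became 3 and 2 under median centring or quantile normalization and 4 and 1 with edgeR. Acsl6, an acyl-CoA synthetase gene, went from 35.3, 38.02 and 34.8 to 83.8, 98.1 and 76.5 (change 1.23, adjusted p = 9.54e-05), and Acaca, which makes malonyl-CoA, rose by 1.67.

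Structural and glycolytic genes stood nearer the raised share of all windows (16.7%) or under it. Of all windows 1.44% were lowered. Of 65 sarcomere and Z-disc windows 10 were raised (15.4%) and 1 lowered (1.54%), with all 7 Ttn windows uncalled. Of 49 calcium handling windows 4 were raised (8.16%) and 2 lowered (4.08%). A raised Ryr3 window (control mean 2.52, knockout mean 10.5) passed the filter only through the knockouts, so its direction was fixed. The raised ones included Casq2, a calcium store protein of the sarcoplasmic reticulum, at 0.86. Its paralogue Casq1 held one of the lowered windows, at -0.42. Of 31 glycolysis and glycogen windows 3 were raised (9.68%), in Fbp2, Pfkfb4 and Pgk1. Raised too were 4 of 34 atrophy and ubiquitin ligase windows (11.8%) and 11 of 65 muscle transcription factor windows (16.9%). The clock and glucocorticoid list had 2 of 18 raised (11.1%). Calls here depended on scaling: with median centring the glycolysis list had 2 raised and 6 lowered, and the calcium list 3 and 5. With that scaling 9.2% of all windows were raised and 6.84% lowered. Both windows of Fbxo32, the atrophy ubiquitin ligase, were uncalled at 0.25 and 0.27.

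Among 34 windows of BCL6 and its corepressors 4 were raised (11.8%, under the 16.7% of all windows) and 0 lowered (1.44% of all windows). Each other scaling left 2 raised, where 9.2% to 11.2% of all windows were raised. In Bcl6 itself the intron 3 window rose by 1.17 (limma adjusted p = 0.0303), a call that the 3 other scalings did not keep. Its intron 1 window overlapped between groups, with 303, 303 and 297 against 252, 373 and 325. Zbtb16, a close relative of BCL6, had the most intronic peaks of any gene, and 0 of its 15 were called, between -0.45 and 0.28. Rbfox1 had 13 peaks, of which 7 were tested, with 0 raised and 1 lowered. Sox6, a repressor of slow-fibre genes, had 13, of which 8 were tested and 3 raised (37.5%). Tacc2 had 12 tested with 2 raised (16.7%), and Sgms1 11 tested with 3 raised (27.3%). Mir1904, by nearest start, had 12, of which 10 were tested and 4 raised (40%). Among all windows 16.7% were raised.

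Raised windows that could be followed in the acute and chronic series were mostly higher in the knockouts there too. In those series H3K27ac was counted in 73866 acetylated regions shared by both, and 1551 intronic peaks (28.6%) lay in one. Of the 821 raised windows 360 (43.8%) lay in one, and the others could not be followed. In the acute series 19 of 1532 tested intronic peaks were in a raised region (1.24%, against 0.0937% of all regions), of which 18 had a raised window, and in the chronic series 29 of 1514 were (1.92%, against 0.166%), of which 28 had one. Lowered regions held 0 and 1 of them (0.0042% and 0.0118% of all regions were lowered). Of the raised windows, 318 of 355 tested (89.6%) were higher in the acute knockouts, with a median of 0.44, and 324 of 354 (91.5%) in the chronic ones, with a median of 0.66. Of all regions 50.7% and 54.0% were higher, and of uncalled intronic windows 58.7% and 60.6%. Every knockout library exceeded every control for 125 of those (35.2%) in the acute series and for 191 (54.0%) in the chronic one, against 7.06% and 6.68% of all regions and 8.98% and 11.8% of uncalled intronic windows. Regions too had to reach a mean signal of 5. Those near empty in controls thus passed only through the knockouts, and the filter fixed their direction. The Usp46 region (control means 0.48 acute, 1.35 chronic) and the Zfyve28 region (3.83 and 3.29) were among these, and the others were not counted. Counts of called regions were fragile. Without mKO_6346 or mKO_6349 the acute count was 6 or 2, and without any one chronic knockout the chronic count was at most 1.

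**Figure D4:**
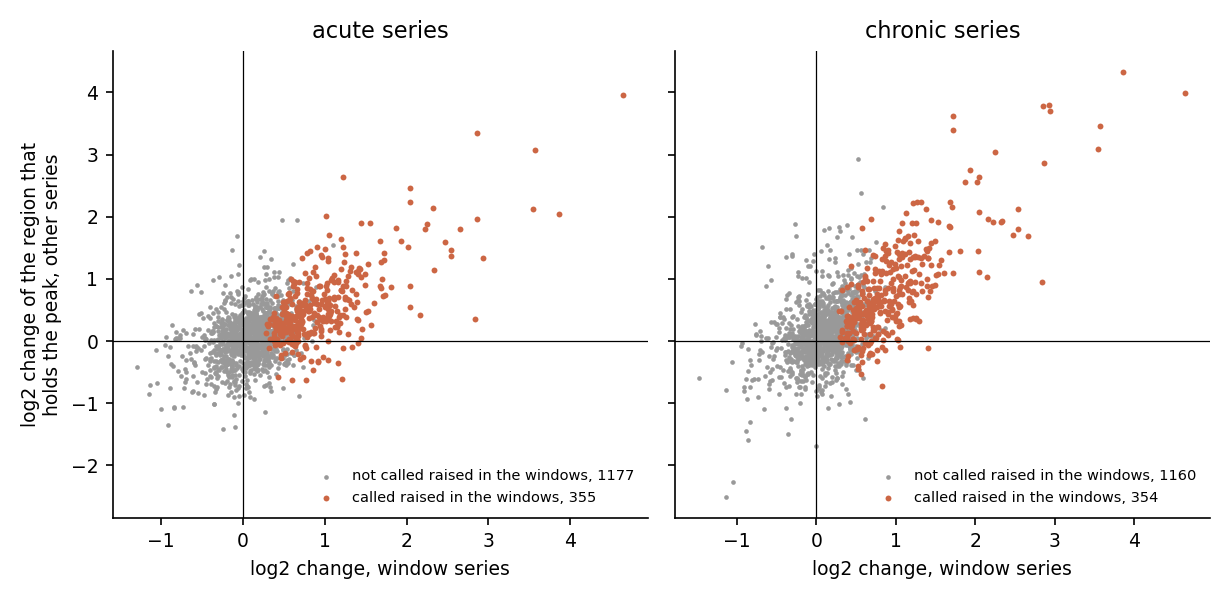
Each point is an intronic BCL6 peak, with its log2 change in the window series on the horizontal axis and the log2 change of the region that holds it in the acute (left) or chronic (right) series on the vertical axis. Windows called raised (orange, 355 and 354) lie mostly above 0 on the vertical axis.

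At 11 peaks the call was raised in all 3 series. These were chosen after their values were seen, and Usp46 and Zfyve28 passed the filter of each series only through the knockouts. Usp46 changed by 4.65, 3.957 and 3.999 in the window, acute and chronic series. In the acute one its region had 0.85, 0.58 and 0.00 in controls and 29.1, 14.1 and 23.1 in knockouts, and in the chronic one 1.49, 2.57 and 0.00 against 33.8, 33.6 and 29.1. Vdr, the vitamin D receptor gene (chr15:97878823-97879043), changed by 2.86, 3.35 and 3.79, with window signals of 6.66, 8.6 and 8.11 against 50.8, 74.8 and 64.0. Vps8, a part of the endosomal tethering machinery, had 88.6, 81.9 and 50.1 against 335, 342 and 351 in its window and changed by 2.24, 1.88 and 3.05. The others were Mrps35, Crim1, Vps53, Cradd, Rbm6, Zfyve28, Zfp777 and Spns3, with the smallest changes at Cradd (1.16, 0.95 and 1.43). These calls were fragile too: Usp46 lost the acute one without mKO_6346 or mKO_6349 (limma adjusted p = 0.172 and 0.117) and the chronic one without any one knockout (0.136 to 0.216). Zfyve28 lost both without any of the same knockouts (0.289 to 0.485) and with a pseudocount of 0.5 (0.0516 and 0.111). Its acute call was also lost without any one control (0.0668 to 0.0823), and its chronic call with no filter (0.0523). Values of other named windows in these series were mixed. Sesn1 changed by 0.99 in the acute series (limma adjusted p = 0.0934) and 2.16 in the chronic one (adjusted p = 0.005), and Arid3b by 1.59 (adjusted p = 0.00907) and 1.70 (adjusted p = 0.069). The Eif4ebp1 peak of highest score had 0.20 and 0.89, with overlapping groups and adjusted p of 0.955 and 0.687, and the weaker Akt1 peak 0.35 and 0.89 (adjusted p = 0.742 and 0.445).

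RNA was compared at the genes with the nearest start. In the RiboTag RNA, from animals outside the window series, 70 of 537 tested genes with a raised intronic window were raised (13.0%) and 13 lowered (2.42%), against 1.95% and 2.25% of all 14476 genes (edgeR, adjusted over all genes). Genes whose window rose by more than 1 gave 46 raised of 226 (20.4%) and 2 lowered. Of 55 genes with a lowered window 0 were raised and 15 lowered (27.3%), and of 2121 with no called window 35 were raised (1.65%) and 111 lowered (5.23%). The count of 70 fell to 46 without Ctr_11735 and to 43 without mKO_11722. In the poly(A) RNA, which shares 6 animals with the windows, 126 of 500 genes with a raised window were raised (25.2%) and 54 lowered (10.8%), against 6.55% and 10.3% of all 12111 genes. Genes with a lowered window gave 0 raised and 22 lowered of 51 (43.1%), while the 1928 genes with no called window gave 101 raised (5.24%) and 429 lowered (22.3%). Taking the gene that holds the intron in place of the nearest start gave 71 and 123 raised. Tested genes of all intronic windows, by nearest start, had 9.16% raised and 20.3% lowered in poly(A) RNA. Their median log2 level was 8.88 against 8.22 over all genes tested, and its part in the calls was not tested.

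**Figure D5:**
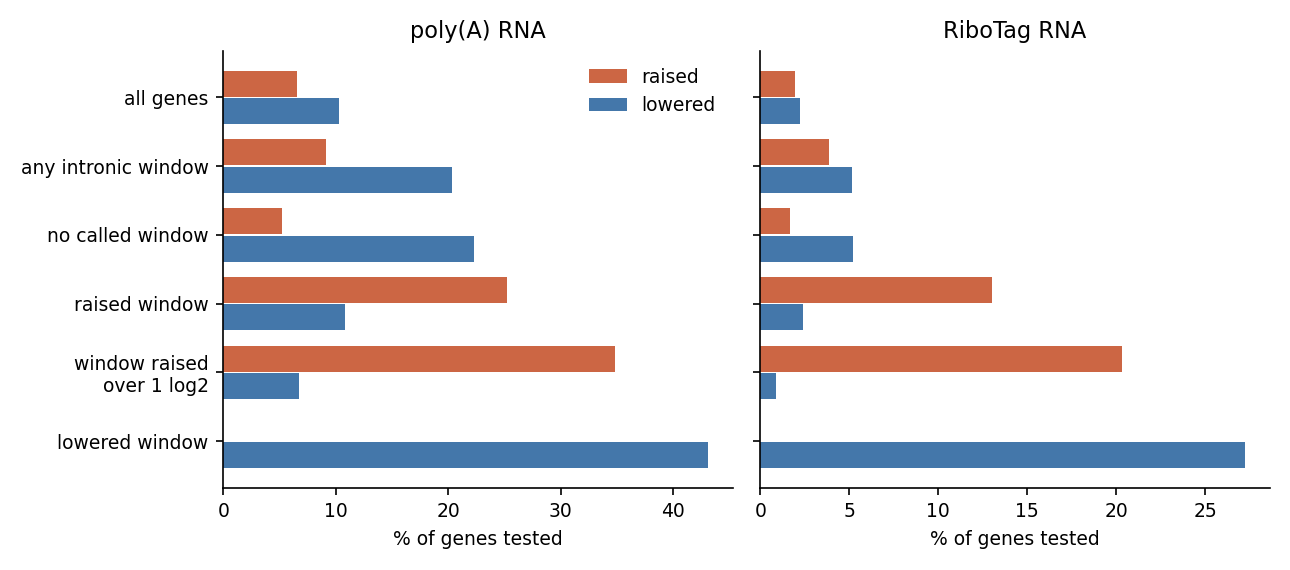
Share (%) of tested genes called raised (orange) or lowered (blue) in knockout muscle, in poly(A) RNA (left) and RiboTag RNA (right), by the calls of their intronic BCL6 windows. The raised share is highest for windows raised by over 1 on the log2 scale, at 34.8% and 20.4%, and no gene with a lowered window was raised.

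Among genes with a raised window, some had higher RNA. Usp46 RNA was 27.7 ± 1.95 CPM (SD, n = 4) in the RiboTag controls and 130 ± 15.8 in knockouts, a log2 change of 2.23 (edgeR adjusted p = 6.33e-07). Akt1 went from 157 ± 4.67 to 441 ± 40.9 CPM (change 1.49, adjusted p = 3.89e-06). Eif4ebp1 went from 52.8 ± 4.11 to 125 ± 13.2, Sesn1 from 69.2 ± 5.23 to 163 ± 7.08, and Arid3b from 12.5 ± 2.52 to 33.7 ± 7.06. Casq2 rose by 1.44 and Fbp2 by 1.29. In poly(A) RNA these 7 genes were also called raised, by 0.25 to 0.89 on the deposited log2 scale.

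Polk and Igf1 fell in both. Polk RNA was 45.3 ± 13.8 CPM (SD, n = 4) in RiboTag controls and 10.8 ± 3.72 in knockouts (change -2.05, edgeR adjusted p = 0.00108), and Igf1 62.3 ± 6.64 and 39.8 ± 6.7 (change -0.65, adjusted p = 0.0104). In the poly(A) RNA Igf1 had 9.79, 9.78, 10.06 and 10.12 in controls and 8.91, 9.09, 8.87, 8.92 and 9.01 in knockouts (change -0.98, limma adjusted p = 1.55e-06). Fibroblast markers, of a cell type that also makes Igf1, averaged 10.02 to 10.14 in controls and 9.97 to 10.07 in knockouts. Of these 5 markers 1 was lowered, against 10.3% of all genes, and their part in this result was not tested. Window and RNA did not always pair. The raised Irs1 window (0.43, limma adjusted p = 0.0308, a call not kept under the other scalings) stood beside RNA that fell from 261 ± 26.3 to 182 ± 13.5 CPM in RiboTag knockouts (change -0.52, edgeR adjusted p = 0.00726), and Mylk4, with a window raised by 0.88, had lower poly(A) RNA (change -0.38, limma adjusted p = 0.000162). The Akt2 and Foxo3 genes, with raised windows, had poly(A) changes of -0.04 and -0.03 that did not pass.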

How the data were processed

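The data used here were H3K27ac of quadriceps from 18 mice in 3 series of 3 against 3, BCL6 of 1 wild-type muscle, and RNA of 9 and 8 mice. A wild-type H3K27ac library was not used. Replicates are animals with separate numbers. Per the submitters' processing notes, reads were placed on mm10 with Bowtie 1.2 or STAR 2.4.0, and HOMER and DESeq2 1.14.1 were named, without their roles. Per the file headers, HOMER counted tags over 1000 bp around each BCL6 peak, and the deposited signal is tags per 10000000; whole tags could be recovered from it. The authors' Peak Score is a score whose scale is not named. The deposited poly(A) values are log2 expression by a transform that is not named. The deposited RiboTag values are counts made with at most 5 tags per position per the file headers, which lowers high genes; the labels also list an anti-HA antibody, so whole muscle or pull-down is not known.

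Windows and regions with a mean signal of at least 5 were tested with limma 3.58.1 (trended) on log2(signal + 1), poly(A) genes with a mean log2 of at least 5 with limma, and RiboTag counts with edgeR 4.0.16 (quasi-likelihood, TMM, filterByExpr), in R 4.3.3, with Benjamini-Hochberg adjustment over the whole table at 0.05. The code was tested on simulated data. Alternatives were other pseudocounts, no filter, median centring, quantile normalization, edgeR on tags, a distance of 5000 bp and leaving out each library; RiboTag RNA, the genes of raised windows by their hosts or by windows called under other scalings, and the contrast of the top 10% with the lower 50% by score were added after seeing the data. Library totals were 15007526 to 22722409 tags (windows), 11772723 to 20773905 (acute), 7794885 to 23016334 (chronic), 6703586 to 7447610 (poly(A) totals per the file headers) and 6499561 to 13045854 counts (RiboTag).

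Named windows were the 6 raised and 6 lowered with the largest change and groups apart, the 8 highest scores, the 5 highest mean signals, the strongest window of the 6 genes with most windows, up to 3 windows of fixed genes and up to 2 called windows per gene list. One window that this rule names is not reported here. The 11 windows raised in all series were chosen after their values were seen, and the printed sequences by what the RefSeq tables cover. Members and lists were chosen with earlier results of these data known.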

Additional observations from a re-analysis of the deposited data

Results flagged for a closer look

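Of 48 groups of 4 or 5 RNA libraries checked for a library far from the others, 2 held one, where chance alone gives about 1 in 20. Sesn1 RiboTag RNA was 153 CPM in mKO_11721 against 165 to 168 in the other 3 knockouts, a gap of 0.834 of the group's range. Igf1 RiboTag RNA was 49.8 CPM in mKO_11688 against 35.9 to 37.4 in the other 3, a gap of 0.89 of the range.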

How the results depend on the processing

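No paired analysis was possible because no animal number recurs between the groups compared. Leaving out each library in turn gave 523 to 845 raised and 28 to 81 lowered windows, 2 to 24 raised and 0 to 2 lowered acute peaks, 0 to 70 raised and 0 to 2 lowered chronic peaks, and 43 to 67 raised RiboTag genes with a raised window. The chronic count was 70 without Ctr_1801, 0 without mKO_1794 or mKO_1802 and 1 without mKO_1803. Median centring gave 470 raised and 306 lowered windows, quantile normalization 486 and 265, and edgeR with TMM 202 lowered ones. In the acute series a pseudocount of 5 gave 33 raised peaks and edgeR 32 raised and 2 lowered. In the chronic series a pseudocount of 5 gave 51 raised, quantile normalization 60 and edgeR 70, with 3 lowered under each of the last 2. The within-library difference between the top 10% and lower 50% by score, set up after seeing the data like the RiboTag comparison, stayed between 0.57 and 0.71 under other pseudocounts, no filter and each library left out.

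Among named windows 3 changed sign. Tmod1 was at -0.0194 under quantile normalization and -0.0524 under median centring. The window assigned to Riox2, in Crybg3, was at -0.067, -0.0998 and, with edgeR, -0.0568, and between -0.15 and 0.345 when 1 library was left out, lowest without Ctr_1906. The Bcl6 intron 1 window was at -0.15, -0.173 and -0.0858, and between -0.0729, without mKO_1900, and 0.21. Of the same windows in the acute series, Eif4ebp1 was at -0.543 with edgeR, -0.454 without Ctr_6345 and -0.15 without Ctr_6366 (up to 1.2 without Ctr_6371), and Foxo3 at -0.161 without Ctr_6345 (up to 1.87 without Ctr_6366). Bcl6 RiboTag RNA was at -0.0392 without Ctr_11673 and -0.0548 without Ctr_11735 (up to 0.403). Calls were lost under some setting at 10 named windows in their own series, at 4 in the acute and at 5 in the chronic one. The cause of these changes was not tested. Depth was lowest in the chronic series, from 7794885 tags, and its part in what was called was not tested.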
